A study of Mus musculus with 6 samples.

Results

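The genes of 10 surface proteins used to recognise or sort adipocyte progenitors were followed in inguinal white adipose tissue (iWAT) with and without adipocyte *Cebpa*: *Pdgfra*, *Pdgfrb*, *Dpp4*, *Pi16*, *Cd55*, *Ly6a*, *Dlk1*, *F3*, *Icam1* and *Cd34*. They were chosen by name as markers of progenitors and preadipocytes and are 10 of the 35999 gene symbols with summed counts and 10 of the 16069 genes tested. All 10 passed the filter on low counts. Bulk RNA-seq was made from whole iWAT of 10-week-old female mice on a C57BL6/J background, randomly fed, with 3 Cebpa_fl/fl control libraries and 3 Cebpa_ASKO libraries and 1 mouse behind each library. Both genotypes carry floxed *Cebpa* alleles, and Cebpa_ASKO mice also carry AdipoQ-Cre, a Cre recombinase driven by the adiponectin promoter, so the deletion is made in cells that express adiponectin and progenitors that do not express it keep the gene. Both inguinal depots of a mouse were extracted together after the lymph nodes had been taken out, and all 6 libraries carry the same batch label. The p-values judge a genotype difference against the variation between these mice.

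Fat depots hold a stromal fraction from which new adipocytes arise. PDGFRα and PDGFRβ, the receptors for platelet-derived growth factors, mark its mesenchymal cells, and SCA-1 (encoded by *Ly6a*) and CD34 are the antigens most often added to sort them. In mouse iWAT these cells are commonly divided into DPP4+ interstitial progenitors, which also carry PI16 and CD55 and lie in the connective tissue around the depot, ICAM1+ committed preadipocytes, which lie nearer to the adipocytes, and CD142+ cells, named after the tissue factor that *F3* encodes. DLK1, also called Pref-1, is a membrane protein that holds preadipocytes back from differentiation. Each of these proteins is also made outside the progenitor lineage, so the RNA of a whole depot reads the sum over its cells, and in such samples fewer cells of a type and less RNA per cell cannot be told apart.

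The promoters of 3 of the markers are shown because *Pdgfra* and *Dpp4* had their highest level in the same control mouse, in which *F3* had its lowest. *Pdgfrb*, *Pi16* and *Cd55* were also highest in that mouse and are not shown. No promoter was at hand for *Pdgfrb*, and the windows of *Pi16* and *Cd55* held no match to the letters described next. Each line is the 250 bases before the annotated gene start in RefSeq on build GRCm38.p6, written 5′ to 3′ on the strand of the gene, and capitals mark a match to TTGCNNAA or to its reverse complement TTNNGCAA, letters of the kind bound by C/EBP proteins. *Pdgfra* lies on the plus strand with this window at chr5:75152001-75152250, *Dpp4* on the minus strand with the window at chr2:62412232-62412481, and *F3* on the plus strand with the window at chr3:121723287-121723536.
Pdgfra: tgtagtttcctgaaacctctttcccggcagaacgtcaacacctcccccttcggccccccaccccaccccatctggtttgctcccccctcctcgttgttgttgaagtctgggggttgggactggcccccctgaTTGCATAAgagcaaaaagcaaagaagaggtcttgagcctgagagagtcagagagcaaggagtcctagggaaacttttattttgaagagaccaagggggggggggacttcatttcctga
Dpp4: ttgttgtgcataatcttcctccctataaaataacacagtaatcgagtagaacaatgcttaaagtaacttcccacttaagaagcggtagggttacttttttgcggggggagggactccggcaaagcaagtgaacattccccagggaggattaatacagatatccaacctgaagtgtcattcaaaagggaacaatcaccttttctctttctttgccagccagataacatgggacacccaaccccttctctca
F3: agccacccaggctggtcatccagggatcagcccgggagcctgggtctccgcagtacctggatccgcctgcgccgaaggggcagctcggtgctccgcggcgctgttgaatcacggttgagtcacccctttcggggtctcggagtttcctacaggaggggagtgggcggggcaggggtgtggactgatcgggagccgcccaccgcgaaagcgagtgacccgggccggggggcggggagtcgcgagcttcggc
The match in the *Pdgfra* window begins 118 bases before the gene start. Of the 8 markers with a promoter in the table, 1 held a match, against 9.56% of all 32851 promoters searched over the same length. A match is a run of letters and not a measured site, and a window without one says only that these letters are not in it.

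The libraries held from 33141769 to 49477671 estimated counts, that is read pairs that kallisto assigned to transcripts. Levels are given below as CPM, each library's counts scaled to a common total with edgeR's TMM factors. *Cebpa* itself, the check of the genotypes, had levels of 448, 465 and 498 CPM in the controls against 37.7, 45.8 and 37.2 CPM in the mutants. The adipocyte genes *Adipoq*, *Cfd* and *Car3* were present in every library, as the tissue label says. The library Cebpa_fl/fl 2 stood apart from the other controls in many stromal genes, and the marker results are given with and without it.

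No marker was called between the genotypes. With edgeR's quasi-likelihood test and Benjamini-Hochberg adjustment over all genes tested, a gene being called at an adjusted p below 0.05, 0 of the 10 passed, while 5.23% of all genes tested did, 1.39% higher and 3.84% lower in Cebpa_ASKO. Also by the unadjusted p below 0.05, 0 of the 10 passed against 19.8% of all genes. DESeq2 called 0 of the 10, against 10.7% of the genes to which it gave an adjusted p, and limma on log2(TPM + 1) called 0 of the 9 it fitted, *Dlk1* being under its filter. The levels of the 2 genotypes overlapped for all 10 markers, whereas they did not overlap for 26.1% of all genes tested. The log2 fold change of Cebpa_ASKO over Cebpa_fl/fl was positive for 7 of the 10, with a median of 0.12 beside 0.02 over all genes.

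**Figure D1:**
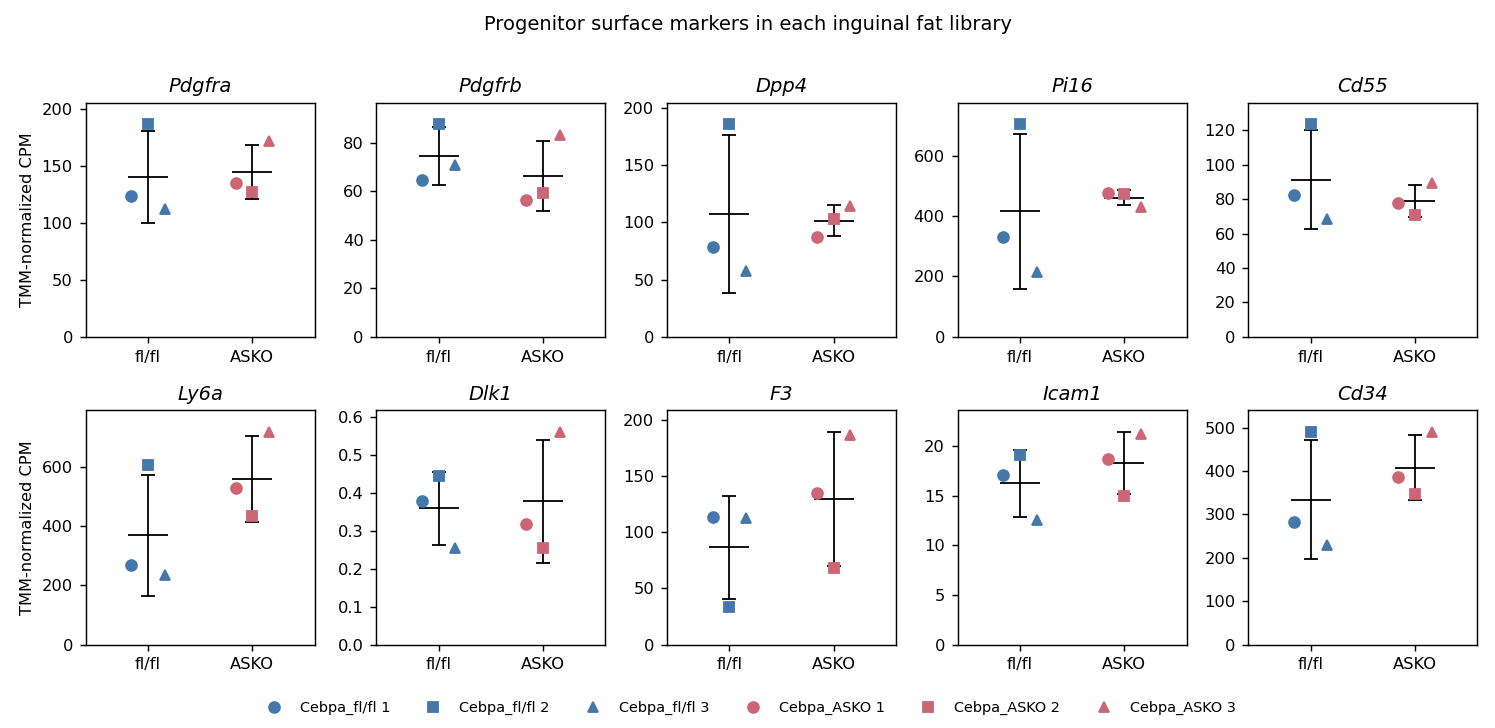
Level of each marker in TMM-normalized CPM (linear axes that start at 0) in the 3 Cebpa_fl/fl and 3 Cebpa_ASKO libraries, with symbols for single libraries, long ticks for the mean and bars for 1 SD. The square of Cebpa_fl/fl 2 is the highest control for 9 markers and the lowest for F3, and the genotypes overlap in every panel.

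*Pdgfra* encodes PDGFRα, the receptor that defines most adipose fibroblasts and progenitors, and lies at chr5:75152292-75198215. It stood at 123, 186 and 112 CPM in Cebpa_fl/fl libraries 1, 2 and 3, and at 135, 127 and 171 CPM in Cebpa_ASKO libraries 1, 2 and 3. The highest and the lowest value were both those of controls, so the mutants lay inside the control range. The log2 fold change was 0.04 ± 0.219 (SE, n = 3 and 3; edgeR adjusted p = 0.949), with a 95% interval from −0.48 to 0.56. That interval leaves room for a level between 0.717 and 1.48 times that of the controls.

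*Pdgfrb*, on chromosome 18, encodes PDGFRβ, which pericytes and other mural cells carry as well as progenitors. Its levels were 64.7, 87.6 and 71.0 CPM in the controls and 56.5, 59.4 and 83.0 CPM in the mutants. Cebpa_ASKO 1 and 2 lay below all 3 controls and Cebpa_ASKO 3 lay between them. Its log2 fold change of −0.17 ± 0.183 (SE) came with a 95% interval from −0.60 to 0.27 and an edgeR adjusted p of 0.696. With Cebpa_ASKO 3 left out, the value was −0.38, at the low end of the range that leaving out single libraries gave.

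With Cebpa_fl/fl 2 included, the 3 markers of interstitial progenitors spread more widely among controls than among mutants. *Dpp4* (chr2:62330073-62412231, minus strand) encodes dipeptidyl peptidase 4, an enzyme on the cell surface that trims peptide hormones. It stood at 78.6, 186 and 57.7 CPM in the controls and at 86.8, 103 and 114 CPM in the mutants. Cebpa_fl/fl 2 had 2.72 times the mean of the other controls, and without it every mutant would lie above every control. With all 6 libraries the log2 fold change was −0.08 ± 0.414 (SE), with a 95% interval from −1.07 to 0.91 and an edgeR adjusted p of 0.948.

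*Pi16* (chr17:29317680-29330593) encodes peptidase inhibitor 16, a membrane-anchored protein of universal fibroblasts. Its levels were 330, 704 and 213 CPM in the controls and 476, 475 and 431 CPM in the mutants. The controls spread on both sides of the narrow mutant range, and Cebpa_fl/fl 2 was the only control above it. This gave a log2 fold change of 0.15 ± 0.405 (SE), with a 95% interval from −0.82 to 1.11 and an edgeR adjusted p of 0.895.

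*Cd55* (chr1:130439027-130462744, minus strand) encodes decay-accelerating factor, which protects cells from complement. It stood at 82.1, 123 and 68.2 CPM in the controls and at 77.5, 70.6 and 89.1 CPM in the mutants. Here Cebpa_fl/fl 2 was again the highest library, at 1.64 times the mean of the other controls, and the remaining 5 libraries were interleaved. Between genotypes the log2 fold change was −0.21 ± 0.222 (SE), with a 95% interval from −0.74 to 0.32 and an edgeR adjusted p of 0.690.

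*Ly6a*, at chr15:74994877-74998031 on the minus strand, encodes SCA-1, a GPI-anchored protein of progenitors that endothelial and blood cells also carry. Its levels were 269, 607 and 237 CPM in the controls and 530, 435 and 721 CPM in the mutants. All 3 mutants exceeded Cebpa_fl/fl 1 and 3, and Cebpa_fl/fl 2 exceeded Cebpa_ASKO 1 and 2. At 0.60 ± 0.390 (SE) its log2 fold change was the largest of the 10, with a 95% interval from −0.33 to 1.53 and an edgeR adjusted p of 0.467.

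*Cd34* (chr1:194938819-194961279) encodes a sialomucin of progenitors and endothelium. Its levels were 282, 489 and 230 CPM in the controls and 386, 348 and 491 CPM in the mutants. The order of the 6 libraries was the same as for *Ly6a*. The log2 fold change was 0.29 ± 0.295 (SE), with a 95% interval from −0.41 to 0.99 and an edgeR adjusted p of 0.668.

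*Icam1* (chr9:21015985-21028817), the adhesion molecule after which committed preadipocytes are named, was low. It stood at 17.1, 19.1 and 12.6 CPM in the controls and at 18.7, 15.0 and 21.3 CPM in the mutants, which overlapped. The log2 fold change was 0.17 ± 0.194 (SE), with a 95% interval from −0.29 to 0.64 and an edgeR adjusted p of 0.706.

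*Dlk1* (chr12:109452823-109463336), the gene of the adipogenesis inhibitor Pref-1, was close to the detection limit in these adult depots. It had 17, 21 and 12 estimated counts in the controls and 10, 10 and 25 in the mutants, or between 0.254 and 0.561 CPM. With so few counts the log2 fold change of 0.09 ± 0.430 (SE) had a 95% interval from −0.94 to 1.11. That interval leaves room for a level between 0.521 and 2.16 times that of the controls.

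*F3* (chr3:121723537-121735048) encodes tissue factor, the membrane receptor that starts coagulation, and as CD142 it names a stromal class that has been described as holding back adipogenesis in its neighbours. Epithelial cells carry it too. Its levels were 113, 33.6 and 113 CPM in the controls and 135, 67.9 and 187 CPM in the mutants. Cebpa_fl/fl 2, the highest control for the other 9 markers, was the lowest of all libraries here, at 0.297 times the mean of the other controls. Its log2 fold change was 0.58 ± 0.528 (SE), with a 95% interval from −0.68 to 1.84 and an edgeR adjusted p of 0.625, the widest interval of the 10.

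Compared per length, the markers spanned a wide range of RNA levels. In TPM, a length-normalized share, *Ly6a* was the most abundant with a mean of 815 TPM over the 6 libraries. *Pi16* followed at 223, *Cd34* at 196, *F3* at 79.7, *Cd55* at 49.8, *Dpp4* at 31.4 and *Pdgfra* at 28.5 TPM, a row in which the libraries of each gene overlapped those of the next. *Pdgfrb* had a mean of 16.4 TPM, *Icam1* 8.99 and *Dlk1* 0.39. *Ly6a* and *Pi16*, *Pdgfra* and *Pdgfrb*, *Pdgfrb* and *Icam1*, and *Icam1* and *Dlk1* were neighbours in this order whose libraries did not overlap, though *Pdgfrb* reached 20.9 TPM and *Pdgfra* went down to 21.4 TPM.

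Without Cebpa_fl/fl 2 the values of the interstitial and SCA-1 markers changed. This library was set apart because of its levels in these same data, and it was the highest control for every marker but *F3*. Leaving it out therefore had to raise the fold changes of those other markers. The values below describe this dependence on a single library and are no separate test. With 2 controls against 3 mutants, *Ly6a* had a log2 fold change of 1.14 ± 0.234 (SE), with a 95% interval from 0.57 to 1.72 and an edgeR adjusted p of 0.0498, and it was then the only marker called, beside 5.65% of the genes tested in that fit. *Pi16* stood at 0.75 ± 0.202 (adjusted p = 0.0993), *Cd34* at 0.66 ± 0.188 (adjusted p = 0.112) and *Dpp4* at 0.56 ± 0.182 (adjusted p = 0.147) on the log2 scale, and these 3 passed only the unadjusted p below 0.05, a threshold that 22.2% of all genes in that fit passed. *Pdgfra* and *Icam1* stood at 0.29, *Dlk1* at 0.26, *F3* at 0.19, *Cd55* at 0.06 and *Pdgfrb* at −0.04, none of them called, and the median of the 10 was 0.29. Leaving out any of the other 5 libraries called 0 of the 10. The median of the 10 was then 0.06 without Cebpa_fl/fl 1, −0.11 without Cebpa_fl/fl 3 and 0.14 without Cebpa_ASKO 1. It was 0.20 without Cebpa_ASKO 2 and −0.04 without Cebpa_ASKO 3.

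**Figure D2:**
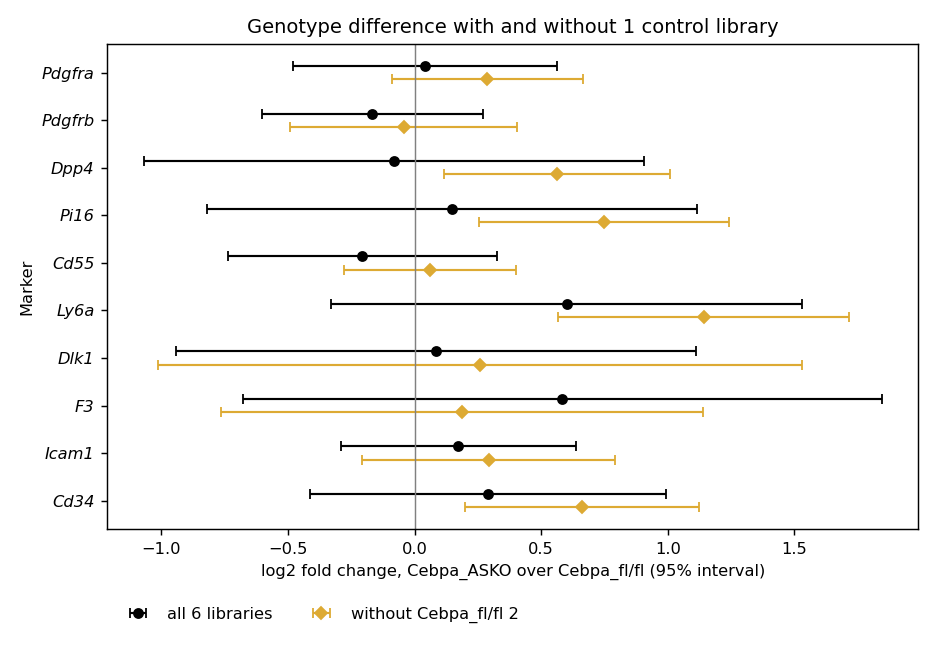
Log2 fold change of Cebpa_ASKO over Cebpa_fl/fl (horizontal axis) with its 95% interval for each marker, from edgeR with all 6 libraries (black circles) and without Cebpa_fl/fl 2 (yellow diamonds). With all libraries every interval crosses 0, and without Cebpa_fl/fl 2 those of Dpp4, Pi16, Ly6a and Cd34 lie above it.

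Cebpa_fl/fl 2 also had the highest summed level of macrophage markers, at 3190 CPM against 1737 and 1177 CPM in the other controls and 1931 to 2651 CPM in the mutants. Its summed level of general fibroblast and matrix genes was the highest too, at 26867 CPM, with 16034 and 16130 CPM in the other controls and 20161 to 21651 CPM in the mutants. Its summed level of mammary and keratin epithelium markers was the lowest, at 723 CPM, where the other controls had 1066 and 1502 CPM and the mutants 1869 to 2093 CPM. The part of these other cells in the levels of *Ly6a*, *Dpp4*, *Pi16*, *Cd34* and *F3* was not tested.

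Dividing each marker by *Pdgfra* in the same library describes its level relative to a broad progenitor gene. This ratio was chosen after the values were seen and carries no test. *Ly6a* over *Pdgfra* in TPM was 19.0, 28.0 and 18.7 in the controls and 33.3, 30.2 and 36.4 in the mutants, a mean 1.52 times as high in Cebpa_ASKO. The mutants lay above all controls, Cebpa_fl/fl 2 included. *Cd34* over *Pdgfra* was 6.12, 6.89 and 5.54 in the controls and 7.37, 7.26 and 7.47 in the mutants, again without overlap and with a mean 1.19 times as high. *Cd55* over *Pdgfra* went the other way, at 1.95, 1.89 and 1.79 in the controls and 1.74, 1.66 and 1.52 in the mutants, a mean 0.874 times that of the controls. The ratios of the other 6 markers overlapped between genotypes. Over all genes above 0 in every library, the same ratio did not overlap for 10.6%, and the genotypes stayed apart for these 3 markers when CPM was used in place of TPM.

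Shares of a gene's estimated counts are given first, in which long transcripts weigh more than in TPM. The full-length coding transcript took nearly all of *Dpp4*, with a mean of 99.3% of its estimated counts in Cebpa_fl/fl and 99.0% in Cebpa_ASKO. In TPM its share was 83.1% and 75.2%, and Dpp4-206, a model that retains an intron, had 13.4% and 22.4%. The TPM shares of both did not overlap between genotypes, but Dpp4-206 held under 1% of the counts, at 0.246%, 0.418% and 0.437% in the controls and 0.914%, 0.636% and 0.505% in the mutants. *Cd34* was split between 2 coding transcripts, Cd34-201 with 1146 coding bases at 57.8% and 57.9% and Cd34-202 with 975 coding bases at 42.0% and 41.9%. *Pi16* gave 48.2% and 48.5% of its counts to Pi16-202, with 1494 coding bases, and 31.5% and 32.2% to Pi16-203, which is annotated as retaining an intron. In TPM, Pi16-201 came first at 38.9% and 37.2%, followed by Pi16-202 at 30.0% and 30.6%. The count shares given for *Cd34* and *Pi16* differed by less than the SD between libraries, and that of the coding *Dpp4* transcript overlapped.

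Among the 14 transcripts of *Pi16*, *Cd55*, *Ly6a*, *Icam1* and *Cd34* compared by their share, 3 did not overlap between genotypes, beside 13% of such transcripts over all genes. Ly6a-201 held 17.5%, 18.8% and 14.0% of *Ly6a* counts in the controls and 24.0%, 21.8% and 25.8% in the mutants. Its share was 7.12 percentage points higher in Cebpa_ASKO (p = 0.1 by an exact permutation test, two-sided, where 20 arrangements of the libraries allow no smaller p, and 0.467 after Benjamini-Hochberg adjustment over the 14). Ly6a-203 was lower in the mutants, with 6.50%, 7.49% and 8.10% in the controls against 5.71%, 6.46% and 6.36%. Cd55-204, an incomplete coding model, held 10.0%, 8.78% and 8.06% of *Cd55* counts in the controls and 14.5%, 11.0% and 11.0% in the mutants, at the same p and adjusted p as Ly6a-201.

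The 5 longer *Ly6a* transcripts share a coding sequence of 402 bases and differ mainly at their 5′ ends, though Ly6a-203 also stops short of the others at its 3′ end. Ly6a-201 begins furthest inside the gene, and the other 4 begin from 273 to 397 bases upstream of it, with an exon that it lacks. The exon in which it begins reaches 17 bases further upstream than in Ly6a-202 and Ly6a-204, and 2 bases further than in Ly6a-203 and Ly6a-205. kallisto divides read pairs that match several transcripts, so this split is less certain than the sum over the gene.

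**Figure D3:**
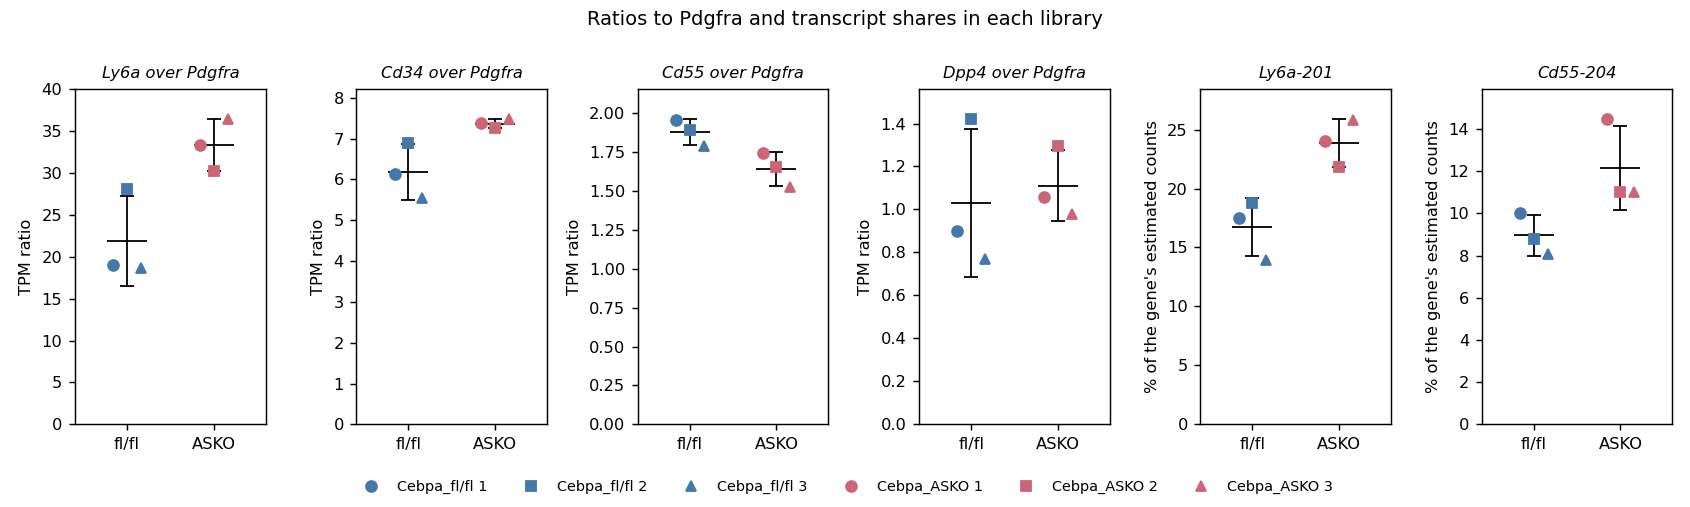
The first 4 panels show the TPM of Ly6a, Cd34, Cd55 and Dpp4 divided by that of Pdgfra in the same library, and the last 2 the percentage of a gene's estimated counts given to Ly6a-201 and Cd55-204, for each library with the mean (long tick) and 1 SD (bar). Only the Dpp4 panel shows overlapping genotypes, with the control at 1.42 above the mutants at 1.06, 1.30 and 0.979.

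Other genes of the same progenitor classes were read from lists written from general knowledge. Of 14 further genes of DPP4+ interstitial progenitors, 0 were called by edgeR, DESeq2 or limma, 0 had an unadjusted edgeR p below 0.05, and their median log2 fold change was 0.13. *Fn1*, the gene of fibronectin and the most abundant of them by mean TPM, stood at 942, 1620 and 821 CPM in the controls and at 1194, 1318 and 1321 CPM in the mutants. Their summed level showed the same shape as *Dpp4* and *Pi16*, with 2980 CPM in Cebpa_fl/fl 2, 1742 and 1472 CPM in the other controls and 2124, 2245 and 2523 CPM in the mutants. Without Cebpa_fl/fl 2 the median was 0.51 and *Opcml*, a neuronal adhesion protein gene, was called higher (log2 fold change 0.82, edgeR adjusted p = 0.0357).

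The list of ICAM1+ committed preadipocytes behaved differently, though *Icam1* itself was not called. Of its 14 further genes, 7 were called lower in Cebpa_ASKO and 0 higher, with a median log2 fold change of −0.79. The log2 fold change was positive for 4 of the 14, *Vcam1*, *Ggt5*, *Cxcl14* and *Sparcl1*, with values from 0.20 to 0.63. *Pparg*, the master regulator of adipogenesis, stood at 172, 162 and 196 CPM in the controls and at 106, 110 and 93.1 CPM in the mutants, and fell by 0.78 on the log2 scale (SE 0.113, edgeR adjusted p = 0.0125). *Zfp423*, a zinc finger factor that commits cells to the adipocyte lineage, stood at 24.7, 27.9 and 25.0 CPM against 18.7, 15.5 and 18.6 CPM, and fell by 0.55 (SE 0.109, edgeR adjusted p = 0.0374). The genotypes did not overlap for either gene.

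The other 5 called genes of that list were *Lpl* (lipoprotein lipase) at −1.34, *Agt* (angiotensinogen) at −3.54, *Apoe* (apolipoprotein E) at −0.81, and the basement membrane collagens *Col4a1* at −0.91 and *Col4a2* at −0.82 on the log2 scale. *Vcam1*, a surface adhesion molecule of the same class, had a log2 fold change of 0.63 (edgeR adjusted p = 0.339), and *Fabp4* one of −0.86 (adjusted p = 0.107). Mature adipocytes also express most of the called genes, and the 12 mature adipocyte markers had a summed level of 32809 to 43015 CPM in the controls and of 7639 to 8112 CPM in the mutants, with 9 called lower and 0 higher (*Adipoq*, *Plin1*, *Cidec*, *Retn*, *Adrb3*, *Cfd*, *Car3*, *Slc7a10* and *Acvr1c*). The part of adipocyte RNA in the fall of these preadipocyte genes was not tested. The count of 7 was 5 without Cebpa_fl/fl 2, where *Zfp423* had an edgeR adjusted p of 0.0626 and *Col4a2* one of 0.0632, 4 without Cebpa_fl/fl 1, 3 without Cebpa_fl/fl 3 and 1 without Cebpa_ASKO 1 or without Cebpa_ASKO 2.

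Of 10 further genes of CD142+ stromal cells, 0 were called by edgeR, DESeq2 or limma, 1 had an unadjusted edgeR p below 0.05, and their median log2 fold change was 0.03. *Mgp*, matrix Gla protein and the most abundant of them by mean TPM, stood at 30.5, 53.0 and 34.5 CPM in the controls and at 52.4, 43.5 and 40.3 CPM in the mutants. The summed level of this list was highest in Cebpa_fl/fl 2, at 444 CPM against 278 to 363 CPM in the other 5 libraries, whereas *F3* was lowest there. Without Cebpa_fl/fl 2, *Bmper*, the gene of a secreted BMP-binding protein, was called higher (log2 fold change 0.85, edgeR adjusted p = 0.0244).

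Of 16 other surface markers used to sort adipose stromal cells, 2 were called and both were lower in Cebpa_ASKO, with a median log2 fold change of 0.00 over the list. *Aoc3*, the amine oxidase VAP-1 of adipocytes and vessel walls, stood at 479, 646 and 647 CPM in the controls and at 251, 212 and 182 CPM in the mutants, and fell by 1.46 on the log2 scale (SE 0.181, edgeR adjusted p = 0.00683). *Adam12*, a metalloprotease of perivascular progenitors, stood at 61.5, 57.5 and 61.7 CPM against 27.1, 31.1 and 35.2 CPM, and fell by 0.95 (SE 0.110, edgeR adjusted p = 0.00527). Both were also called without Cebpa_fl/fl 2. *Ly6c1*, *Cd81* and *Cd9*, the most abundant of the list by mean TPM, had log2 fold changes of 0.17, 0.00 and 0.61, and that of *Cd9* had an adjusted p of 0.0567.

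Ligands, partners and relatives of the markers made a list of 24 symbols, of which 23 were tested, *Cd97* being an older name of *Adgre5*. By edgeR 0 were called, with 7 at an unadjusted p below 0.05, and by DESeq2 3 were called. *Pdgfd*, a ligand of PDGFRβ, stood at 17.9, 28.6 and 16.5 CPM in the controls and at 42.0, 40.4 and 35.6 CPM in the mutants. These did not overlap, but the log2 fold change of 0.90 ± 0.216 (SE) had an edgeR adjusted p of 0.0685. Without Cebpa_fl/fl 2 it was 1.18 with an adjusted p of 0.00428. *Pdgfa*, *Pdgfb* and *Pdgfc* had log2 fold changes of 0.32, −0.38 and −0.03, none of them called. *Adgre5*, the receptor that binds CD55 and the most abundant of the list by mean TPM, stood at 65.7 to 79.8 CPM in the controls and at 69.5 to 76.2 CPM in the mutants, with a log2 fold change of 0.00.

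Lists of other cell types that share these surface proteins gave the following. Of 16 general fibroblast and matrix genes, 1 was called, the procollagen enhancer *Pcolce*, at 108, 153 and 99.4 CPM in the controls and 265, 221 and 213 CPM in the mutants (log2 fold change 0.96 ± 0.186, edgeR adjusted p = 0.0358). That call was lost when any 1 library other than Cebpa_fl/fl 2 was left out. Without Cebpa_fl/fl 2 the list had 5 genes called higher, *Lum*, *Fbln1*, *Pcolce*, *Mmp2* and *Prrx1*. Of 10 macrophage markers, 0 were called by edgeR, DESeq2 or limma and 0 had an unadjusted edgeR p below 0.05.

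Endothelial cells carry *Cd34* and *Ly6a* as well. Of 12 endothelial markers edgeR called 2 lower, *Emcn* at −0.60 and *Cldn5* at −1.10 on the log2 scale. The summed level ran from 484 to 584 CPM in the controls and from 350 to 468 CPM in the mutants. By the unadjusted edgeR p below 0.05 7 of the 12 passed, DESeq2 called 5, and the log2 fold change was positive for 1. *Cd34* and *Ly6a* had log2 fold changes of 0.29 and 0.60, neither of them called. The 2 edgeR calls of endothelial markers fell to 0 without any 1 of the 3 controls or Cebpa_ASKO 1, and to 1 without Cebpa_ASKO 2.

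Pericytes and smooth muscle cells carry *Pdgfrb*. Of their 12 markers *Abcc9* was called higher, by 0.84, and *Mcam* lower, at −1.96 on the log2 scale, with a summed level of 899 to 1093 CPM in the controls and 965 to 1145 CPM in the mutants. By the unadjusted p below 0.05 8 of the 12 passed, and DESeq2 called 6. Without Cebpa_ASKO 1, and without Cebpa_ASKO 2, 1 of these calls was left. Mesothelial markers, of which 6 of 8 were tested, had 0 called by edgeR with 3 at an unadjusted p below 0.05, and 2 called by DESeq2, and the defining markers *Upk3b* and *Wt1* were at or near 0 counts in every library. The summed level of this list was 213 to 560 CPM in the controls and 707 to 761 CPM in the mutants. *Krt19* alone held most of that sum, at 335, 206 and 543 CPM in the controls and 683, 725 and 704 CPM in the mutants. Positive log2 fold changes were found for 5 of the 6 tested genes, whereas *Lrrn4* had one of −0.93, which was not called.

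The 10 mammary and keratin epithelium markers had 0 called by edgeR, with 7 at an unadjusted p below 0.05, and 4 called by DESeq2, with a summed level of 723 to 1502 CPM in the controls and 1869 to 2093 CPM in the mutants. *F3*, which epithelia also make, was highest in Cebpa_ASKO 3 and Cebpa_ASKO 1. In Cebpa_ASKO 2 *F3* stood at 67.9 CPM, where the epithelial markers summed to 1869 CPM. In Cebpa_fl/fl 1 and 3 *F3* stood at 113 CPM, and these markers summed to 1066 and 1502 CPM. Of 12 lymphocyte markers 11 were tested and 0 were called by edgeR, with 8 at an unadjusted p below 0.05, and 3 were called by DESeq2. Their summed level was 453 CPM in Cebpa_fl/fl 1 against 45.5 to 92.4 CPM in the other libraries. Skeletal muscle markers had 9 of 12 called higher (*Acta1*, *Myh4*, *Ckm*, *Mylpf*, *Tnnt3*, *Tnni2*, *Tnnc2*, *Pvalb* and *Atp2a1*), with summed levels from 588 to 831 CPM in the controls and from 1981 to 5736 CPM in the mutants, and that count was 1 without Cebpa_fl/fl 1, without Cebpa_fl/fl 3 or without Cebpa_ASKO 1. Of 8 Schwann cell and nerve markers 2 were called higher, *S100b* and *Ncmap*, with a summed level of 289 to 395 CPM in the controls and 448 to 568 CPM in the mutants, a count that was 0 without Cebpa_fl/fl 3, Cebpa_ASKO 1 or Cebpa_ASKO 2 and 1 without Cebpa_fl/fl 1 or 2. The part of these cells in the marker levels was not tested.

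**Figure D4:**
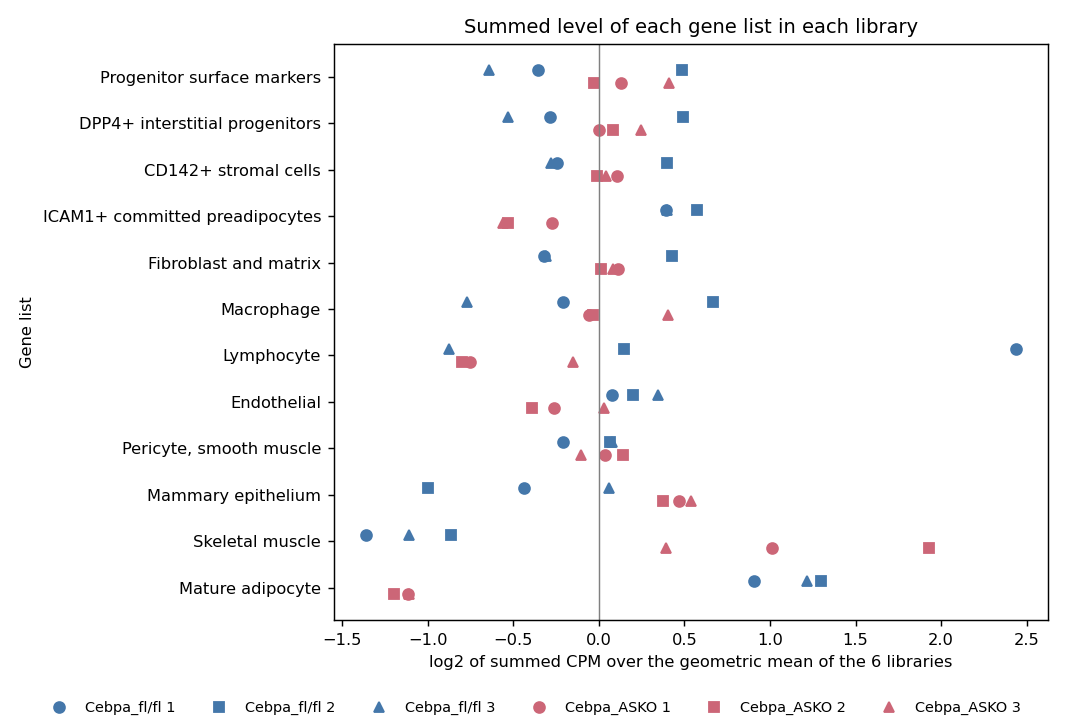
Summed CPM of 12 of the gene lists in each library, as the log2 of its ratio to the geometric mean of the 6 libraries (horizontal axis), with blue for Cebpa_fl/fl and red for Cebpa_ASKO. The progenitor surface markers, interstitial, CD142+, fibroblast and macrophage lists share a pattern with Cebpa_fl/fl 2 on the right, while the committed preadipocyte, endothelial, mammary, skeletal muscle and mature adipocyte lists separate the genotypes.

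For the 2 markers with the smallest p, the genes most like them over the 6 libraries were found by Pearson's r of log2 CPM. This is a description over libraries that differ in genotype and in depth. *Ly6a* was closest to *Maged2* (r = 0.997) and *Anxa1* (r = 0.994), and 116 of the 16068 genes compared had an r above 0.95. *Anxa1*, the gene of annexin A1, stood at 248, 361 and 233 CPM in the controls and at 353, 330 and 412 CPM in the mutants. *F3* was closest to *Gm13722* (r = 0.995) and *Cdk7* (r = 0.993), 2 genes that varied little, *Cdk7* between 19.4 and 21.3 CPM, and 55 genes had an r above 0.95.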

How the data were processed

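RNA was measured in whole iWAT of 6 mice by paired-end RNA-seq after poly-A selection, and the genotypes were taken from the sample titles. Per the labels, kallisto 0.44.0 was used, and they name both the human build GRCh38.p12 and the mouse build GRCm38.p6. For each library the authors deposited an estimated count for every transcript, without normalization, with its effective length in bases, and its TPM, which sums to the same total in each library. The authors also deposited TPM summed per gene symbol. That table gave *Dlk1* at 2 times its transcript sum, as for 270 of 23486 symbols (tolerance 0.1%). Marker levels in TPM, their ratios to *Pdgfra* and transcript shares therefore used TPM from transcripts. The limma fits and the mean TPM that ranked list genes used the authors' table, with such symbols left doubled. In it *Dlk1* had a mean of 0.782 TPM, against 0.391 TPM from its transcripts. The annotation release is not given in the sources used here. By identifier, 116816 of the 118489 transcripts were found in GENCODE M21 (GRCm38), and these held 99.5% to 99.6% of each library's counts, and the estimated counts were summed per gene symbol and rounded.

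The software was edgeR 4.0.16, DESeq2 1.42.0 and limma 3.58.1 in R 4.3.3, with scipy 1.17.1 and pandas 2.3.3 in Python 3.11.15. Cebpa_ASKO was compared with Cebpa_fl/fl by edgeR's quasi-likelihood test (TMM factors from 0.956 to 1.06, default low-count filter, 16069 genes). Intervals use edgeR's moderated degrees of freedom and rest on the variation between mice. Transcripts were compared by share where a gene had at least 100 counts in every library and 2 or more transcripts of at least 5%. Replicates differed by more than sampling noise (chi-square over its degrees of freedom between 25.9 and 224), and none was merged. The procedure was tested on simulated counts.

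The named genes are the 10 markers, the called members of each list and otherwise its most abundant ones by mean TPM (lists of other cell types with no call are given by counts and sums, with the defining mesothelial markers *Upk3b* and *Wt1*), the 2 genes most like each of the 2 markers with the smallest p, and *Cebpa*. *Pdgfa*, *Pdgfb*, *Pdgfc*, *Pdgfd*, *Vcam1*, *Ggt5*, *Cxcl14*, *Sparcl1*, *Fabp4*, *Krt19*, *Lrrn4*, Dpp4-206 and the genes called only without Cebpa_fl/fl 2 were named after their values were seen. The markers and gene lists were chosen with earlier results of these data known. The alternatives were DESeq2, other scalings and filters, an offset for transcript length, limma on log2(TPM + 1) with and without its filter (TPM of at least 1 in 3 libraries) and on log2(TPM + 0.1), whose fold changes understate those of low genes, the replicate number as a block, and each library left out in turn.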

Additional observations from a re-analysis of the deposited data

How the results depend on the processing

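Of the 10 markers, 0 were called under every alternative except without Cebpa_fl/fl 2 (limma with its filter fitted 9, without *Dlk1*), so leaving out 1 library gave from 0 to 1 called. Over all genes 840 were called, against 1813 with DESeq2, 359 with limma on log2(TPM + 1) without a filter, 370 with the replicate number as a block, and from 311 to 922 with 1 library left out (508 without Cebpa_fl/fl 1, 502 without Cebpa_fl/fl 3, 311 without Cebpa_ASKO 1 and 363 without Cebpa_ASKO 2). The small log2 fold change of *Dpp4*, −0.08, turned positive at 0.0516 with the length offset, 0.28 with limma on log2(TPM + 1) with and without a filter, 0.30 on log2(TPM + 0.1) and 0.10 with the replicate block. With 1 library left out it ran from −0.38 to 0.56, and signs also changed for *Pdgfra* (−0.12 to 0.29), *Pi16* (−0.17 to 0.75), *Cd55* (−0.38 to 0.061) and *Dlk1* (−0.35 to 0.29). The Cd34-202 share differed by −0.03 percentage points in counts and by 0.0813 in TPM, and the *Dpp4* ratio to *Pdgfra* was 1.08 times that of the controls in TPM and 0.987 times in CPM. The cause of these differences was not tested. The replicate numbers share only a number: deviations of same-numbered libraries correlated at 0.116, −0.0258 and −0.278, not every library correlated best with its own number, and the block called 0 of the 10 markers, with *F3* at an adjusted p of 0.175. The other marker fold changes kept their sign and side of the threshold, except that *Ly6a* was called without Cebpa_fl/fl 2. Transcript shares and ratios were recomputed only in TPM or CPM, and of the shares that overlapped in counts, those of Dpp4-201 and Ly6a-204 did not overlap in TPM. Of the lists, the 7 called genes of committed preadipocytes were 4 with total count scaling or limma with its filter, 2 with limma without a filter and 1 with the replicate block, the 2 endothelial ones were 5 with DESeq2 and 0 with total count scaling, limma or the block, the 9 skeletal muscle ones were 1 with limma without a filter, the 2 pericyte ones were 6 with DESeq2 and 1 with the block, the 2 other surface markers were 1 with the block or with limma without a filter, and *Pcolce* was not called with either of these. With 3 mice a genotype, the intervals above set what could be detected, and for *Dlk1* the 10 to 25 counts did.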
